A study of Homo sapiens with 15 samples.

Results

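Complement and acute phase genes were described by 9 members, C3, C5, CFB, CFI, CD46, CD55, CD59, LCN2 and SERPINA1, which were taken by gene symbol from the 43388 gene rows counted in every RNA-seq library. A549 is a line of human lung adenocarcinoma epithelial cells, labelled as wild type. The cells were given 1e-05 mM ATRA (all-trans retinoic acid, a vitamin A metabolite that activates nuclear receptors) or its vehicle ethanol for 24 hours and then cultured under hyperoxia (95% oxygen) or normoxia (21% oxygen) for a further 72 hours, and other cells were exposed to each oxygen level with neither ATRA nor vehicle. At each oxygen level there were 3 ATRA libraries, 2 vehicle libraries and 2 libraries without vehicle, 14 in all. The labels do not say whether libraries of a group came from separate cultures, so the p-values measure the spread between these libraries, which may be technical.

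Complement is a cascade of plasma proteins in which convertase enzymes cleave C3 and then C5, mark surfaces for removal and start the assembly of a membrane pore. Host cells carry membrane proteins that take the convertases apart, help to inactivate them or block the pore. Acute phase proteins are secreted mainly by the liver during inflammation, but epithelia, including that of the lung, also make complement components, lipocalin and antiproteases. The members were ordered by these roles: the components C3 and C5, the protease CFB, the inhibitor CFI, the membrane regulators CD46, CD55 and CD59, and the acute phase proteins LCN2 and SERPINA1.

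Gene positions follow RefSeq on GRCh38.p14 (hg38), and all 9 are protein-coding genes. The components lie on chromosome 19 from 6677704 to 6720650 (C3) and on chromosome 9 from 120952335 to 121074865 (C5). CFB lies on chromosome 6 from 31946095 to 31952084 and CFI on chromosome 4 from 109730982 to 109801999. CD55 and CD46 are near each other on chromosome 1, from 207321678 to 207360966 and from 207752038 to 207795516, and CD59 lies on chromosome 11 from 33703010 to 33736479. LCN2 shares chromosome 9 with C5, from 128149453 to 128153453, and SERPINA1 lies on chromosome 14 from 94376747 to 94390635. How reads over 2 genes were assigned is not given in the sources used here. The 3 members with an overlapping annotated gene that also had a row were C5, whose neighbour C5-OT1 held 489 counts against 4530 for C5 (10.8%) over the 14 libraries, CD59, where C11orf91 held 83 against 10319 (0.804%), and CD55, where LOC107985251 held 0.

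The promoters of genes that moved with ATRA or oxygen are shown because the receptors that ATRA activates bind short repeated DNA words. RefSeq promoter sequences were found for 8 of the 9 members, all but C3, in 14 windows, some of which overlap. The 250 bases before the annotated start are printed 5′ to 3′ on the gene's strand for LCN2 (chr9:128149203-128149452, plus strand) and CD55 (chr1:207321428-207321677, plus strand), which rose with ATRA (CD55 in normoxia), and for the more upstream of 2 starts of C5 (chr9:121074866-121075115, minus strand), which was lower in hyperoxia. Capitals mark a match to any of the words searched.
LCN2: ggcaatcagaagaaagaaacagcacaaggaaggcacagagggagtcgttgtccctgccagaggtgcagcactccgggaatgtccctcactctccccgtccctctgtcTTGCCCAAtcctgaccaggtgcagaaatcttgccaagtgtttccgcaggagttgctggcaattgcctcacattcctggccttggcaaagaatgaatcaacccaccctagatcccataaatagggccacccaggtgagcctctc
CD55: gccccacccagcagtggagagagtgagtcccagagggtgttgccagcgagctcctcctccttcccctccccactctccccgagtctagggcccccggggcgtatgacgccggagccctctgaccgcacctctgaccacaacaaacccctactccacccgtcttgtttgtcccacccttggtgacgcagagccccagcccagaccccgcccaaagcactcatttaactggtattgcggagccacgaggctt
C5: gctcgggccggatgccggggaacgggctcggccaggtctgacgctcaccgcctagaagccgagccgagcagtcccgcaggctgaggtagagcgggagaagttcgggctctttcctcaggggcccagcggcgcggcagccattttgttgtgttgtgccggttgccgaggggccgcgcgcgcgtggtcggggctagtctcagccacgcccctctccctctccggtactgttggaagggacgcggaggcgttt

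The words were searched on both strands of the 250 bases. The retinoic acid receptor half-site AGGTCA was found once before CD46, in a stretch that its 2 overlapping windows share, and in 1 window of SERPINA1, and 12.1% of all 35116 promoters in the table hold it. Its direct repeat with 5 bases between (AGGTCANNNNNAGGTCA) was in none of the 14 windows and in 0.00285% of all promoters. The C/EBP word TTGCNNAA was found once before LCN2, from -143 to -136 relative to the start, and in 1 window of CD59, against 9.05% of all promoters. The STAT word TTCNNNGAA was found before CFB and once before CD59, where 2 overlapping windows share it, against 6.57% of all promoters. The NF-kB word was searched in a fixed form only, which was in none of the 14 windows, against 1.73% of all promoters. Other forms were not searched, so this absence does not show that these promoters, that of LCN2 included, lack an NF-kB site. The STAT word reads the same on both strands, and a half-site is part of the direct repeat, so these searches overlap. A match describes letters only and was not tested as a binding site.

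Counts on genes totalled 2642377 to 5605072 per library, so that 3 counts, taken as the floor, correspond to 0.535 to 1.14 CPM of these totals. The CPM values given for genes are read counts scaled for library size and composition by edgeR's TMM method. The floor covers counting error only. Library 1 of hyperoxia without vehicle stood apart, with 12657 genes detected against 16465 to 20108 in the other 13. Genes with 1 to 3 counts numbered 508 in it, against 855 (hyperoxia ATRA library 1) to 3657 in the others. Low counts were thus scarce in the library that stood apart, and its counts of 0 for members near the floor are uncertain. Calls of members that rest on that library are given with and without it. Other results that use it, among them those of the gene lists, may be given with it only. Libraries are numbered here within a group, and the numbers pair nothing. The 7 epithelial markers were all counted, with summed levels of 7223 to 11880 CPM in normoxia and 3321 to 7008 CPM in hyperoxia. Of 9 alveolar type II markers, SFTPA1 and SFTPA2 were at 0 in every library. The list summed to 50.1 to 93.9 CPM in normoxia and 108 to 157 CPM in hyperoxia. Nearly all of that sum was ABCA3, at 49.7 to 153 CPM over all libraries, and NAPSA, the next highest, reached at most 3.97 CPM. The sum thus describes ABCA3 and not the type II list as a whole. The 5 alveolar type I markers, of which PDPN, AQP5 and HOPX were at 0, summed to 235 to 464 CPM over all libraries. Nearly all of this was CAV1, at 233 to 464 CPM, while AGER reached at most 5.31 CPM. The leukocyte and macrophage list of 7 genes summed to 21.3 to 48.7 CPM in normoxia and 60.7 to 103 CPM in hyperoxia. CD68 had 17.4 to 103 CPM and CD14 0 to 15.3 CPM, while PTPRC had at most 1 count in a library. Fibroblast (6 genes), endothelial (4) and adipocyte (5) lists reached at most 13.2, 6.26 and 6.19 CPM, with DCN, VWF, ADIPOQ and LEP at 0. Marker lists that differ with oxygen move with the oxygen results below, and their part in them was not tested. In bulk RNA, fewer cells of a kind and less RNA per cell cannot be told apart.

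Levels of different members were compared only per transcript length. With the median length of a gene's coding transcripts, CD59 had the highest median over the 14 libraries, 148 CPM per kb (range 98.8 to 252), followed by CD55 at 54.8 and CD46 at 40.8. The membrane regulators were thus the most abundant members on this scale. The components followed, C3 at 21.9 (highest library 74.8) and C5 at 11.4 CPM per kb (4.62 to 24.1). LCN2 at 1.82, CFB at 0.873 and CFI at 0.129 CPM per kb were far lower, and the median of SERPINA1 was 0. The order depends on the length used, since annotated transcripts of C3 have a median of 701 bases and a longest of 5231, and those of CD59 1168 and 7724. With the longest transcript, CD46 came first at 38.1, then CD55 at 34.7, CD59 at 22.4, C5 at 8.99 and C3 at 2.94 CPM per kb. The ranges of CD55 and CD46 overlapped, as did those of C3 and C5.

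**Figure D1:**
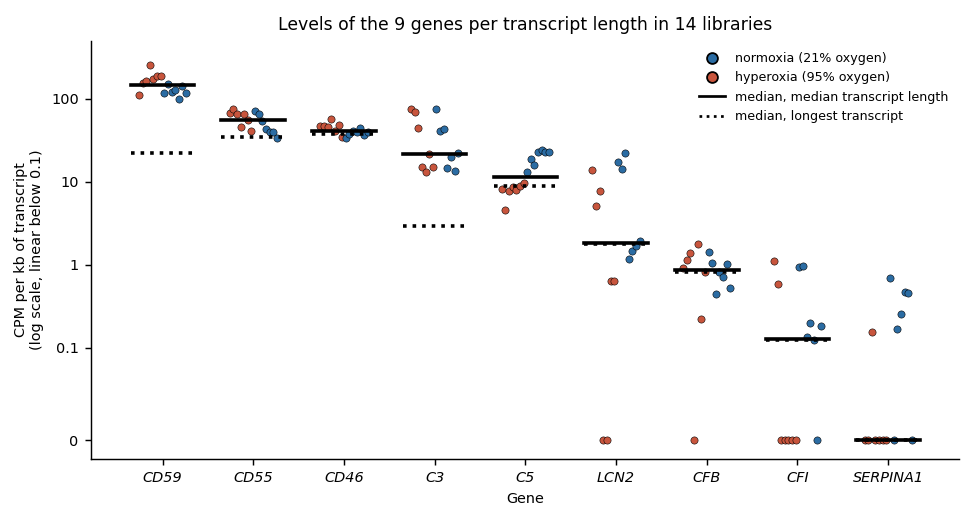
Level of each gene in each of 14 libraries (points) in CPM per kb of its median transcript length, on a log axis that is linear below 0.1, with the median over libraries for the median transcript length (solid line) and for the longest transcript (dotted line). CD59, CD55 and CD46 lie at or above 33.8 CPM per kb in every library, and SERPINA1 is at 0 in all but 6.

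The filter on low counts was passed by 7 members. CFI and SERPINA1 did not pass and were not tested. Between 75.2% and 78.4% of the reads of a library were not assigned to any gene.

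C3, the component on which the activation routes of complement converge, was higher with ATRA at both oxygen levels. In normoxia it was at 9.38 and 15.6 CPM in the vehicle libraries and at 52.4, 28.4 and 30.2 CPM in the ATRA libraries. In hyperoxia the vehicle libraries were at 15.1 and 10.6 CPM and the ATRA libraries at 52.3, 48.2 and 30.9 CPM. Every ATRA library was above every vehicle library at its oxygen level. The log2 fold change was 1.78 in hyperoxia (standard error, SE, 0.33, adjusted p = 0.00306, by the quasi-likelihood test of edgeR, adjusted over all 14957 genes by the Benjamini-Hochberg method) and 1.52 in normoxia (standard error 0.33, adjusted p = 0.0164). The rise in hyperoxia was not called without hyperoxia vehicle library 2 (adjusted p = 0.129), and over the other alternatives its adjusted p was at most 0.0411. In normoxia it was not called without normoxia ATRA library 1 (adjusted p = 0.135), the highest of its group, nor without normoxia vehicle library 1 (0.384) or 2 (0.0648).

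Without vehicle, C3 was at 10.1 and 13.9 CPM in normoxia and at 10.6 and 9.12 CPM in hyperoxia, close to the levels with vehicle. Oxygen did not separate the groups of C3. Hyperoxia against normoxia gave a log2 fold change of -0.021 with vehicle (95% interval -0.78 to 0.74) and 0.24 with ATRA (-0.31 to 0.79), neither of them called. From highest to lowest, mean levels were 43.8 ± 11.3 CPM (SD, n = 3) in hyperoxia with ATRA and 37.0 ± 13.4 CPM (n = 3) in normoxia with ATRA, then 9.85 to 12.9 CPM in the other 4 groups. The ATRA groups differed from each other by less than their SD, and the other 4 groups overlapped or touched.

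C5, the component whose cleavage starts the terminal pathway, was lower in hyperoxia in each of the 3 oxygen comparisons. It was at 125 and 123 CPM in normoxia with vehicle and at 48.2 and 53.0 CPM in hyperoxia with vehicle. With ATRA it was at 71.5, 102 and 86.9 CPM in normoxia and at 44.7, 25.3 and 41.8 CPM in hyperoxia. Without vehicle it was at 126 and 132 CPM in normoxia and at 47.5 and 43.7 CPM in hyperoxia. All 7 hyperoxia libraries were below all 7 normoxia libraries. The log2 fold change of C5 was -1.29 with vehicle (standard error 0.21, adjusted p = 0.000169, edgeR), -1.19 with ATRA (0.18, adjusted p = 5.59e-05) and -1.50 without vehicle (0.23, adjusted p = 0.000396, 15339 genes tested). These calls held under every alternative, and without hyperoxia library 1 of the cells without vehicle the last was -1.57 (adjusted p = 0.000387).

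With ATRA, C5 was below the vehicle libraries at both oxygen levels, without overlap. The log2 fold changes, -0.41 in hyperoxia (95% interval -0.84 to 0.0062, adjusted p = 0.376, edgeR) and -0.52 in normoxia (-0.91 to -0.13, adjusted p = 0.311), did not pass the test. The order of its group means ran from 129 ± 3.91 CPM (SD, n = 2) in normoxia without vehicle to 37.3 ± 10.5 CPM (n = 3) in hyperoxia with ATRA. Normoxia without and with vehicle (124 ± 0.943 CPM) were close in mean, and the ranges of the hyperoxia groups with vehicle (48.2 to 53.0 CPM) and with ATRA (25.3 to 44.7 CPM) were next to each other.

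CFB, the protease of the alternative pathway convertase, was near the floor. It had 0 to 14 counts in a library and was counted in 13 of 14, at a median of 2.06 CPM. Hyperoxia gave 2 and 11 counts with vehicle and 12, 7 and 14 with ATRA. Normoxia gave 7 and 7 with vehicle and 13, 8 and 4 with ATRA. Without vehicle there were 10 and 7 counts at 21% oxygen and 0 and 13 at 95% oxygen. The group ranges overlapped in normoxia, and in hyperoxia the ATRA libraries lay just above the vehicle libraries in CPM. The ratio of pooled counts scaled for depth was 1.93 with ATRA against vehicle in hyperoxia (95% counting interval 0.990 to 4.001) and 1.40 in normoxia (0.699 to 2.91). No comparison called CFB.

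CFI, the plasma protease that inactivates the cleaved form of C3 with the help of cofactors, was counted in 8 of 14 libraries. The ATRA libraries had 12, 3 and 0 counts under hyperoxia and 7, 6 and 1 under normoxia. Vehicle libraries had 0 and 0 under hyperoxia and 0 and 2 under normoxia, and those without vehicle had 0 and 0 under hyperoxia and 2 and 1 under normoxia. The 3 libraries with more than 3 counts were all ATRA libraries, but each ATRA group also held a library at or below 1 count, so the groups overlapped. In normoxia the ratio of pooled counts was 5.48 (14 against 2 counts, 95% counting interval 1.26 to 49.7). The interval covers counting error only and not the spread between libraries.

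CD46, a membrane cofactor with which CFI inactivates convertase components, stayed within a narrow range. It was at 106 to 181 CPM over the 14 libraries, with 334 to 904 counts. With ATRA it was at 148, 147 and 144 CPM in hyperoxia and at 106, 118 and 129 CPM in normoxia, without overlap. That difference of 0.31 on the log2 scale (95% interval 0.036 to 0.58) did not pass the test over all genes (adjusted p = 0.0989, edgeR). With vehicle it was at 151 and 110 CPM in hyperoxia and at 116 and 125 CPM in normoxia, and without vehicle at 181 and 128 CPM and at 125 and 141 CPM, so that these groups overlapped. ATRA against vehicle gave 0.17 in hyperoxia (-0.13 to 0.47) and -0.039 in normoxia (-0.35 to 0.27).

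CD55, the decay-accelerating factor that takes convertases apart at the cell surface, was higher with ATRA in normoxia. There it was at 66.4 and 56.8 CPM with vehicle and at 121, 111 and 90.6 CPM with ATRA. In hyperoxia it was at 93.3 and 68.0 CPM with vehicle and at 114, 126 and 111 CPM with ATRA. The ATRA and vehicle groups did not overlap at either oxygen level. The log2 fold change was 0.81 in normoxia (standard error 0.17, adjusted p = 0.0147, edgeR) and 0.54 in hyperoxia (standard error 0.17, adjusted p = 0.108), where it did not pass. The rise in normoxia was not called without normoxia ATRA library 1 (adjusted p = 0.0983), normoxia vehicle library 1 (0.101) or normoxia vehicle library 2 (0.356). The difference between the effects at the 2 oxygen levels was itself not called (-0.27, 95% interval -0.76 to 0.22).

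Without vehicle, CD55 was at 72.9 and 66.0 CPM in normoxia and at 76.9 and 109 CPM in hyperoxia. Hyperoxia was above normoxia without overlap both with and without vehicle, at 0.39 (95% interval 0.0054 to 0.77, adjusted p = 0.168, edgeR) and 0.41 (-0.028 to 0.85, adjusted p = 0.195), and neither passed. Without library 1 of hyperoxia without vehicle, the second was 0.64. The group means ran from 117 ± 8.02 CPM (SD, n = 3) in hyperoxia with ATRA and 107 ± 15.3 CPM (n = 3) in normoxia with ATRA to 61.6 ± 6.81 CPM (n = 2) in normoxia with vehicle.

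CD59, which blocks the assembly of the membrane pore, was higher in hyperoxia among cells without ATRA. With vehicle it was at 222 and 219 CPM in hyperoxia and at 169 and 138 CPM in normoxia. Without vehicle it was at 295 and 204 CPM in hyperoxia and at 149 and 115 CPM in normoxia. Neither pair of groups overlapped. The log2 fold change was 0.53 with vehicle (standard error 0.17, adjusted p = 0.0394, edgeR) and 0.92 without vehicle (standard error 0.21, adjusted p = 0.00898). The call with vehicle was lost without hyperoxia vehicle library 1 (adjusted p = 0.204) or 2 (0.180) and without normoxia vehicle library 1 (0.0747) or 2 (0.386). It was also lost in a fit of all 14 libraries (0.159), but not in the same fit without the library that stood apart, which called C5 and CD59. Without library 1 of hyperoxia without vehicle, the library that stood apart and the highest for CD59, the second was 0.62 (adjusted p = 0.0755).

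With ATRA, CD59 was at 131, 182 and 190 CPM in hyperoxia and at 135, 177 and 141 CPM in normoxia, and these groups overlapped. The oxygen effect with ATRA was 0.15 (95% interval -0.15 to 0.45, adjusted p = 0.503, edgeR). In hyperoxia all 3 ATRA libraries were below both vehicle libraries, by 0.40 on the log2 scale in the fit (-0.73 to -0.071, adjusted p = 0.239), which did not pass. In normoxia the ATRA effect was -0.020 (-0.36 to 0.32). The difference between the ATRA effects was -0.38 (-0.85 to 0.092), not called, so the effect of oxygen on CD59 was not shown to differ between vehicle and ATRA.

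LCN2, or lipocalin, which binds the iron carriers of bacteria, had the largest fitted rise with ATRA among the members tested. In normoxia it had 4 and 9 counts with vehicle (1.39 and 1.60 CPM) and 54, 37 and 70 counts with ATRA (14.1, 11.6 and 18.2 CPM). In hyperoxia it had 2 and 3 counts with vehicle (0.530 CPM each) and 63, 11 and 27 counts with ATRA (11.4, 4.21 and 6.38 CPM). The ATRA and vehicle groups were far apart at both oxygen levels. The ratio of pooled counts scaled for depth was 9.69 in normoxia (161 against 13 counts, 95% counting interval 5.51 to 18.6) and 15.4 in hyperoxia (101 against 5 counts, 6.38 to 48.4). The fitted log2 fold changes were 3.25 in normoxia (standard error 0.61, adjusted p = 0.00569, edgeR) and 3.75 in hyperoxia (standard error 0.70, adjusted p = 0.00350). Ranked by rise, LCN2 was number 31 and number 30 of 14957 genes. The call in normoxia was lost without normoxia vehicle library 1 (adjusted p = 0.108) or 2 (0.123), and that in hyperoxia without hyperoxia vehicle library 1 (0.0781) or 2 (0.0999). In these fits a single vehicle library remained at that oxygen level and was taken to vary like the other groups. Both calls were also lost in a fit of all 14 libraries, which keeps every vehicle library, at an adjusted p of 0.107 in normoxia and 0.0565 in hyperoxia.

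LCN2 was at lower levels in hyperoxia than in normoxia in each pair of groups. Without vehicle there were 5 and 5 counts under normoxia and none in either hyperoxia library, so that the level in normoxia was at least 1.38-fold higher when the floor of 3 counts per library stands in for 0. This difference was called (adjusted p = 0.0265, edgeR), but not without library 1 of hyperoxia without vehicle (adjusted p = 0.156). With vehicle, the pooled counts were 13 in normoxia and 5 in hyperoxia (ratio 2.88, 95% counting interval 0.964 to 10.3), and the difference was not called (adjusted p = 0.263). With ATRA every hyperoxia library was below every normoxia library, at -0.96 on the log2 scale (95% interval -1.89 to -0.040, adjusted p = 0.129). Without hyperoxia ATRA library 1, the highest of its group, this became -1.44 (adjusted p = 0.0341). LCN2 is also a gene of neutrophil granules. The 6 neutrophil markers together reached at most 0.390 CPM in any library and were at 0 in all ATRA libraries, and MPO, LTF, CAMP and FCGR3B were at 0 throughout.

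SERPINA1, the antiprotease that inhibits neutrophil elastase, was at or near 0. It had counts in 6 of 14 libraries, with a highest count of 4. In normoxia it had 2 and 3 counts without vehicle, 2 and 0 with vehicle and 4, 0 and 1 with ATRA. In hyperoxia it had 1 count in 1 ATRA library and 0 in the other 6 libraries. All groups but normoxia ATRA were at or under the floor of 3 counts in every library, so no fold is given. The 6 hepatocyte markers together reached at most 0.944 CPM, with APOA1, APOA2 and APOC3 at 0.

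**Figure D2:**
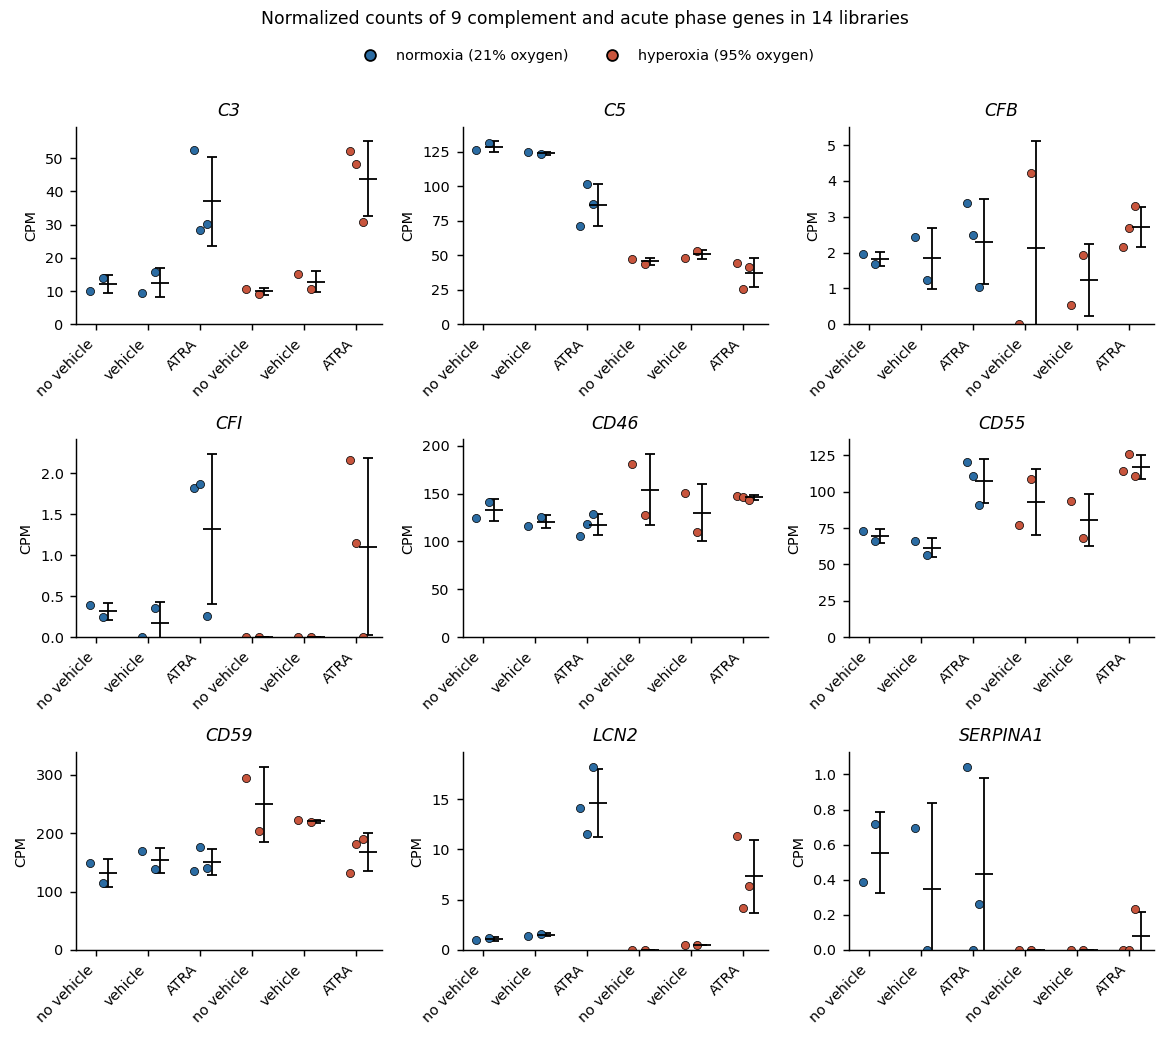
Normalized count (CPM, linear axes from 0) of each of the 9 genes in 14 libraries, grouped by treatment within normoxia (blue) and hyperoxia (red), with the mean and SD of each group beside the points (bars end at 0 where the SD is larger than the mean). C5 is lower in all hyperoxia libraries, and C3 and LCN2 are higher in all ATRA libraries than in any library without ATRA.

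Set against all genes, members were called at the following rates. For hyperoxia against normoxia with vehicle, 2 of the 7 tested members were called, C5 lower and CD59 higher, beside 17.5% of all genes (8.68% higher and 8.81% lower). With ATRA, 1 of 7 was called, C5, beside 22.7% of all genes (11.4% higher and 11.3% lower). For cells without vehicle, 3 of 7 were called, C5 and LCN2 lower and CD59 higher, beside 15.2% of all genes. Against these rates, 1 to 3 calls among 7 genes are no result about the members as a group. Without library 1 of hyperoxia without vehicle, 1 of 7 was called in the last comparison. The median log2 fold change of the 7 members was -0.021 with vehicle, 0.15 with ATRA and 0.15 without vehicle, against medians over all genes of 0.010, 0.014 and -0.10.

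For ATRA against vehicle, 2 of 7 members were called in hyperoxia, C3 and LCN2, both higher, beside 2.21% of all genes (1.52% higher and 0.695% lower). In normoxia 3 of 7 were called, C3, CD55 and LCN2, all higher, beside 1.25% of all genes (0.816% higher and 0.435% lower). LCN2 had at most 9 counts in any library without ATRA and passed the filter on low counts through the ATRA groups, where it is high, so its calls are not independent of that filter. Of the other 6 members tested, 1 was called in hyperoxia and 2 in normoxia. The members were chosen with earlier results of these data known, so these rates do not show a response of the group to ATRA. In a fit of all 14 libraries in 6 groups, 1 member was called in hyperoxia (C3) and 0 in normoxia, where the adjusted p of C3, CD55 and LCN2 was 0.121, 0.107 and 0.107 and 4 members were under an unadjusted p of 0.05. The same fit without the library that stood apart called 2 and 3 members, again C3 and LCN2 in hyperoxia and C3, CD55 and LCN2 in normoxia. Leaving out each library in turn gave 0 to 2 members in hyperoxia, with 1 without hyperoxia vehicle library 1 and 0 without library 2. It gave 0 to 3 in normoxia, with 1 without normoxia ATRA library 1 and 0 without either normoxia vehicle library. The ATRA and oxygen comparisons share libraries, so they are not independent of each other.

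No member was called for a difference between the ATRA effects in hyperoxia and normoxia by edgeR, beside 0.14% of all genes. The count under an unadjusted p of 0.05 was also 0 of 7, and DESeq2 called 0 of the 4 members to which it gave an adjusted p. The intervals leave room for differences, from -0.68 to 1.20 on the log2 scale for C3 and from -1.35 to 2.35 for LCN2. Vehicle against no vehicle called 0 of 7 members in either oxygen level, beside 0.00652% of all genes in hyperoxia and 0% in normoxia, and DESeq2 also called 0 members. Under an unadjusted p of 0.05, edgeR had 1 member in hyperoxia, LCN2 with 2 and 3 counts against 0 and 0 (adjusted p = 0.554), and 0 in normoxia.

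**Figure D3:**
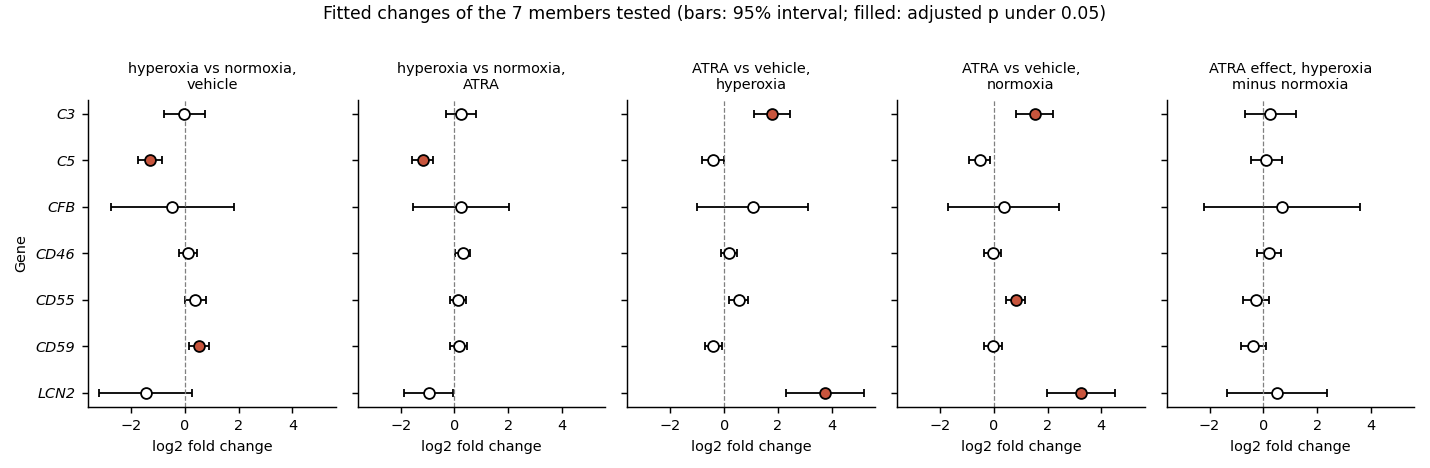
Log2 fold change of the 7 members that passed the filter on low counts in 5 comparisons, with 95% intervals from edgeR's fit of 10 libraries (filled points: adjusted p under 0.05). C5 is left of 0 in both oxygen comparisons, C3 and LCN2 are right of 0 in both ATRA comparisons, and every interval of the last panel includes 0.

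Other genes of the same systems were counted from fixed lists, which were also chosen with earlier results of these data known. Of 25 further complement components, 5 passed the filter and 19 never reached 10 counts in a library. C1R and C1S, the proteases of the first complex of the classical pathway, rose with ATRA in hyperoxia. C1R was at 78.6 ± 17.8 CPM (SD, n = 3) with ATRA and 23.0 ± 0.671 CPM (n = 2) with vehicle, and its log2 fold change was 1.77 (SE 0.23, adjusted p = 8.96e-05, edgeR). C1S was at 85.1 ± 5.92 and 45.4 ± 18.1 CPM, with 0.89 on the log2 scale (SE 0.21, adjusted p = 0.0215). With ATRA both were also higher in hyperoxia than in normoxia, C1R by 0.97 (adjusted p = 0.000842) and C1S by 0.60 (adjusted p = 0.0204). With vehicle, hyperoxia against normoxia called 0 of the 5 by edgeR (0 under an unadjusted p of 0.05). ATRA in normoxia called 0 (2 under an unadjusted p of 0.05, and 1 called by DESeq2), with C1R at 0.84 (adjusted p = 0.0934, edgeR) and C1S at 0.65 (0.216). The difference between the ATRA effects was 0.93 for C1R (adjusted p = 0.440, edgeR) and 0.24 for C1S (0.927), neither called. A rise particular to hyperoxia was thus not shown. Over all genes, 2.21% were called for ATRA in hyperoxia, 1.25% for ATRA in normoxia, 22.7% for oxygen with ATRA and 17.5% for oxygen with vehicle. Beside 22.7%, 2 calls among 5 genes for oxygen with ATRA are no result about the list. The median over the 5 was 0.88 for ATRA in hyperoxia, against 0.0042 over all genes. The 2 calls for ATRA in hyperoxia became 1 without hyperoxia ATRA library 1 or without hyperoxia vehicle library 1. Those for oxygen with ATRA became 1 without normoxia ATRA library 3, and the 0 for ATRA in normoxia became 1 without hyperoxia ATRA library 1. In the fit of 14 libraries there was 1 for ATRA in hyperoxia and 1 for oxygen with ATRA. With the vehicle libraries pooled with those without vehicle, there was 1 for oxygen with ATRA and 1 for ATRA in normoxia. With no filter on low counts there was also 1 for ATRA in normoxia.

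Of 22 complement regulators and receptors, 9 passed the filter. VTN, vitronectin, which binds the forming pore in the fluid phase, was at 5.56 ± 0.371 CPM (SD, n = 2) in hyperoxia and 25.4 ± 3.97 CPM (n = 2) in normoxia, both with vehicle, which is -2.19 on the log2 scale (SE 0.37, adjusted p = 0.000207, edgeR). Between the oxygen levels with ATRA its log2 fold change was -0.34 (adjusted p = 0.391), and without vehicle it was not called. With ATRA in hyperoxia it was at 26.1 ± 10.6 CPM, a rise of 2.23 over vehicle (standard error 0.35, adjusted p = 0.000735). CLU, clusterin, another fluid-phase inhibitor of the pore, was lower in hyperoxia by all 3 comparisons. Its log2 fold change was -1.30 with vehicle (adjusted p = 2.64e-07), -0.50 with ATRA (adjusted p = 0.00136) and -1.10 without vehicle (adjusted p = 3.44e-05), all by edgeR. In normoxia CLU fell with ATRA, from 919 ± 68.8 to 602 ± 50.2 CPM (log2 fold change -0.61, adjusted p = 0.00545). In hyperoxia the value for CLU with ATRA was 0.20 (adjusted p = 0.498), and the difference between the ATRA effects was 0.81 (adjusted p = 0.0504), which did not pass. For that difference edgeR called 0 of the 9 genes (2 under an unadjusted p of 0.05), and 1 was called with DESeq2, with RLE size factors or without normoxia ATRA library 3, and 2 with no filter on low counts. Calls thus numbered 2 of 9 for oxygen with vehicle and 1 of 9 with ATRA, beside 17.5% and 22.7% of all genes, and 1 of 9 for ATRA in each of hyperoxia and normoxia, beside 2.21% and 1.25%. The count for oxygen with ATRA became 3 without hyperoxia ATRA library 1 and 2 without library 2, that for ATRA in normoxia became 0 without normoxia vehicle library 2, and that for ATRA in hyperoxia became 0 when the vehicle libraries were pooled with those without vehicle. The median over the 9 was -0.16 for oxygen with vehicle and 0.20 for ATRA in hyperoxia, against 0.010 and 0.0042 over all genes.

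Of 31 other acute phase proteins, 9 passed the filter and 20 never reached 10 counts. The fibrinogen chains, the precursors of the fibrin clot, were lower in hyperoxia. With vehicle, FGB was at 3.09 ± 0.622 CPM (SD, n = 2) in hyperoxia and 42.9 ± 1.74 CPM (n = 2) in normoxia, or -3.76 on the log2 scale (SE 0.33, adjusted p = 4.80e-08, edgeR). FGG (-2.68, adjusted p = 2.09e-05) and FGA (-2.50, adjusted p = 6.59e-09) fell with it, while FTH1, the heavy chain of the iron store ferritin, rose by 1.18 (adjusted p = 6.84e-07). In all, 2 were higher and 4 lower with vehicle, 2 higher and 7 lower with ATRA, and 2 higher and 4 lower without vehicle. Over all genes, 17.5%, 22.7% and 15.2% were called in these comparisons. SERPINA3, an inhibitor of chymotrypsin-like proteases, and the iron carrier TF were among the 7, at log2 fold changes of -4.69 (adjusted p = 4.64e-06) and -3.39 (adjusted p = 0.0212). With ATRA they were at 24.2 and 8.54 CPM in normoxia but at 0.956 and 0.972 CPM in hyperoxia. Both passed the filter on low counts through normoxia with ATRA, where they are high, so their calls are not independent of that filter. The 4 lower without vehicle also included SERPINA3, at a mean of 0 CPM in hyperoxia and 1.43 CPM in normoxia, near the floor. That comparison uses the library that stood apart. The median over the 9, with SERPINA3 and TF included, was -2.50 with vehicle and -2.54 with ATRA, against 0.010 and 0.014 over all genes.

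With ATRA against vehicle, 4 of the 9 were called in normoxia and 2 in hyperoxia, beside the 1.25% and 2.21% of all genes given above. In normoxia SERPINA3 was at 24.2 ± 10.7 CPM (SD, n = 3) with ATRA and 2.02 ± 0.0951 CPM (n = 2) with vehicle, or 3.58 on the log2 scale (SE 0.62, adjusted p = 0.00274, edgeR). SERPINA3 passed the filter on low counts through this ATRA group, so its call is not independent of the filter. CP, the copper carrier ceruloplasmin (1.46, adjusted p = 0.0118), and FGB (1.27, adjusted p = 0.00374) also rose, and FTH1 fell (-0.50, adjusted p = 0.0217). In hyperoxia the 2 calls were falls of the ferritin chains FTL (-0.63, adjusted p = 0.00423) and FTH1 (-0.53, adjusted p = 0.0111). No gene of the list was called for a difference between the ATRA effects by edgeR (0 under an unadjusted p of 0.05). The 4 calls in normoxia became 2 without normoxia ATRA library 1, 0 without normoxia vehicle library 1, 1 without normoxia vehicle library 2, 0 in the fit of 14 libraries and 7 with DESeq2. The 2 in hyperoxia became 1 without hyperoxia ATRA library 1 and 0 without hyperoxia vehicle library 2. Reads of the ferritin genes can be shared with their processed pseudogenes, so these values are uncertain.

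**Figure D4:**
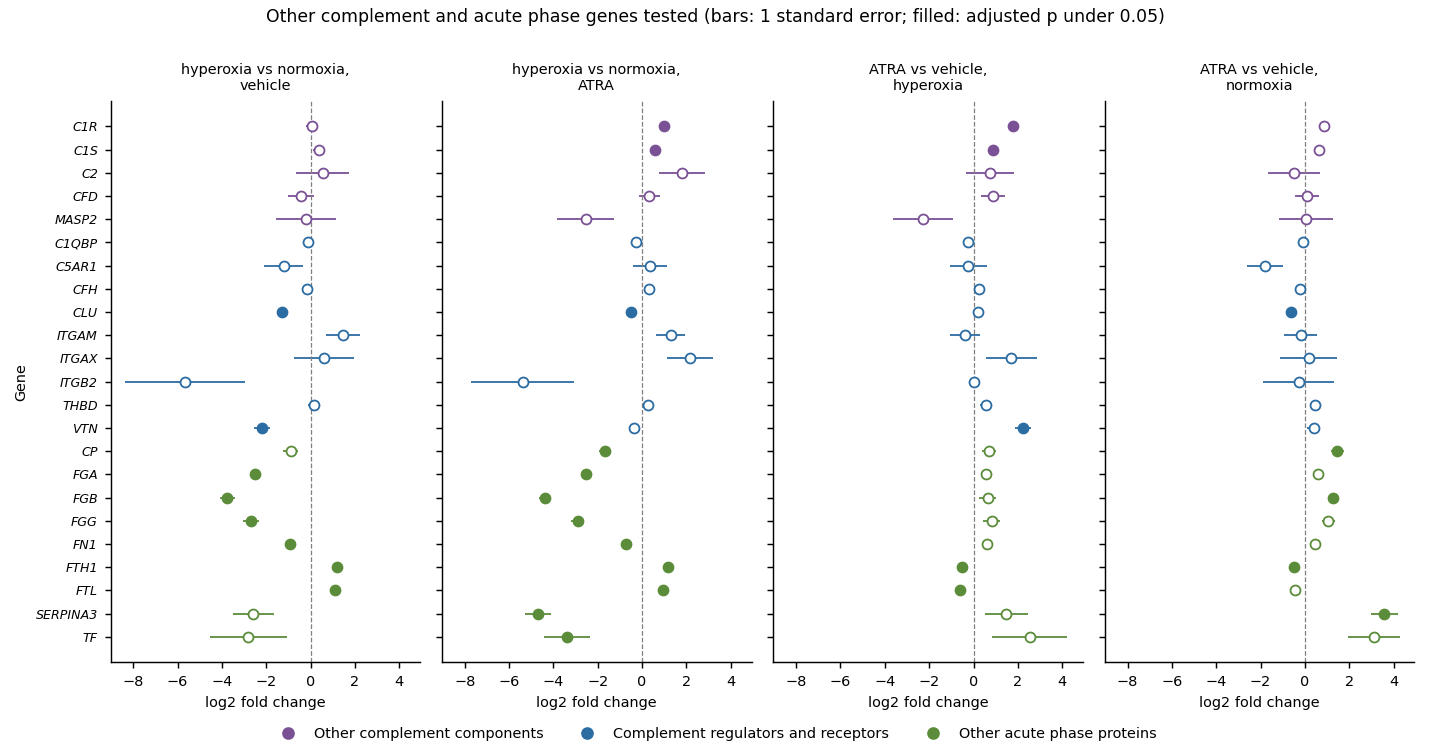
Log2 fold change with 1 standard error (bars) of the 23 other complement components, complement regulators and receptors and acute phase proteins that passed the filter, in 4 comparisons (filled points: adjusted p under 0.05). The fibrinogen chains FGA, FGB and FGG lie left of 0 in both oxygen panels, and C1R, C1S and VTN are filled to the right of 0 for ATRA in hyperoxia.

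Of 26 signals and factors of the acute phase response, 22 passed the filter. For oxygen with vehicle 11 were called, 8 higher and 3 lower, beside 17.5% of all genes. SOCS3, a feedback inhibitor of cytokine receptors, was at 80.1 ± 6.38 CPM (SD, n = 2) in hyperoxia and 24.1 ± 5.74 CPM (n = 2) in normoxia (log2 fold change 1.76, adjusted p = 1.67e-05, edgeR). The NF-kB subunits RELB (1.44, adjusted p = 0.0143) and NFKB2 (1.42, adjusted p = 1.11e-05) rose and the interleukin receptor IL1R1 fell (-1.24, adjusted p = 0.000689). With ATRA, 6 were higher in hyperoxia, among them SOCS3 (2.11, adjusted p = 2.62e-07) and CEBPA (1.26, adjusted p = 0.0284), and 3 were lower, among them IL1R1 (-0.94, adjusted p = 0.00135). Over all genes, 22.7% were called in that comparison. ATRA in hyperoxia lowered 3, NFKB2 (-1.03, adjusted p = 0.000845), the receptor subunit IL6ST (-0.58, adjusted p = 0.0179) and the oncostatin M receptor OSMR (-0.53, adjusted p = 0.0298), and in normoxia it raised 1, the kinase JAK1 (0.65, adjusted p = 0.00608). The shares over all genes were 2.21% for ATRA in hyperoxia and 1.25% in normoxia. The 1 call in normoxia among 22 genes is no result about the list. The median over the 22 was 0.43 for oxygen with vehicle and -0.12 for ATRA in hyperoxia, against 0.010 and 0.0042 over all genes.

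Counts over these signals depended on single libraries and on the fit. The 11 for oxygen with vehicle became 6 without hyperoxia vehicle library 1 and 7 without hyperoxia vehicle library 2 or normoxia vehicle library 1. The 9 for oxygen with ATRA became 5 without hyperoxia ATRA library 2 or normoxia ATRA library 2. The 3 for ATRA in hyperoxia became 1 without hyperoxia ATRA library 2 or without either hyperoxia vehicle library. The 1 for ATRA in normoxia became 2 without hyperoxia ATRA library 1, with DESeq2 or with no filter, and 0 without either normoxia vehicle library. In the fit of 14 libraries there were 5 for oxygen with ATRA, as with pooled controls, and 1 for ATRA in hyperoxia. For the difference between the ATRA effects edgeR called 0 (5 under an unadjusted p of 0.05), and 2 were called with DESeq2, with no filter or without hyperoxia ATRA library 3.

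Genes with the most similar pattern were found for the 5 members called in at least 1 comparison of the 10 libraries, by Pearson's r of log2 CPM over the 14 libraries, which share their oxygen split and their depth. For C3 they were CYP26B1, a retinoic acid hydroxylase (r = 0.942), and ABCC1, an export pump (0.919). LCN2 was most like CAVIN2, a protein of caveolae (0.942), and ELF3, an epithelial transcription factor (0.928). C5 was most like ACLY, the enzyme that makes cytosolic acetyl-CoA (0.973), and HSPH1, a chaperone (0.960). CD55 was most like LPIN2 (0.904) and the cadherin CDH2 (0.896), and CD59 most like the integrin chain ITGAV (0.943) and ZNF567 (0.942). Over the 10 libraries with vehicle or ATRA, 1 of the 2 genes was again among the first 2 for C3, C5, CD55 and LCN2, and 0 for CD59. Among the members themselves, r was highest for C3 with LCN2 (0.868) and C3 with CD55 (0.728), and lowest for CD55 with C5 (-0.652).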

How the data were processed

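RNA was sequenced from A549 cells with a strand-keeping kit. Per the submitters' processing notes and the study's methods, reads were trimmed with Trimmomatic 0.38, aligned to hg38 with HISAT2 and counted with HTSeq. The authors deposited raw counts per gene symbol, without normalization. The annotation release and the strand and overlap settings are not given in the sources used here. Rows that name no gene were left out.

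Counts were fitted with edgeR 4.0.16 in R 4.3.3 (filterByExpr, minimum count 10 and total 15, TMM, quasi-likelihood test, Benjamini-Hochberg adjustment over all genes tested, called under 0.05). The 10 vehicle and ATRA libraries in 4 groups gave the ATRA and oxygen comparisons (14957 genes), and all 14 in 6 groups those with cells without vehicle (15339 genes). Intervals are 95%, and counting intervals are exact. Correlations used log2 CPM with a prior count of 2. Transcript lengths are from GENCODE 44. The procedure was tested on simulated data.

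Named genes were the members, up to 4 called genes per list and comparison with the largest change, the 2 genes most like each called member, and overlapping genes. The members and lists were chosen with earlier results of these data known. Alternatives were DESeq2 1.42.0, RLE size factors, no filter, only the groups compared, 14 libraries, pooled controls, cells without vehicle, other lengths and each library left out. Fits without library 1 of hyperoxia without vehicle, and DESeq2 on 14 libraries, were added after seeing the data. One library, whose labels disagree on its treatment, entered no comparison. Plots were drawn with matplotlib 3.10.9. Results for some genes covered by the naming rule are not reported here.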

Additional observations from a re-analysis of the deposited data

How the results depend on the processing

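The calls of C5 in hyperoxia against normoxia held under all alternatives, and no called member changed direction under any alternative run. With DESeq2, 1 of the 5 members given an adjusted p was called for ATRA in hyperoxia (LCN2 was given none). With 14 libraries in 6 groups, 1 was called for oxygen with vehicle, 1 for ATRA in hyperoxia and 0 for ATRA in normoxia, and without library 1 of hyperoxia without vehicle the same fit called 2, 2 and 3. In 3 other settings an uncalled value changed sign. C3 for oxygen with vehicle was 0.0080 with 14 libraries, CD59 for ATRA in normoxia was 0.090 with pooled controls, and CFB for oxygen was 0.15 in cells without vehicle. Leaving out each library in turn gave 1 to 2 members called for oxygen with vehicle, 1 to 2 for oxygen with ATRA, 0 to 2 for ATRA in hyperoxia and 0 to 3 for ATRA in normoxia, and without library 1 of hyperoxia without vehicle 1 member was called for cells without vehicle. Uncalled log2 fold changes that changed sign with a library left out ranged, for oxygen with vehicle, from -0.33 to 0.41 for C3, from -1.73 to 0.090 for CFB and from -0.17 to 0.29 for CD46. For oxygen with ATRA they ranged from -0.15 to 0.62 for CFB and from -0.013 to 0.21 for CD55. For ATRA in hyperoxia CD46 ranged from -0.054 to 0.41, and in normoxia CFB from -0.078 to 0.87, CD46 from -0.11 to 0.032 and CD59 from -0.16 to 0.12. For the difference between the ATRA effects they ranged from -0.20 to 0.59 for C3, from -0.044 to 0.27 for C5 and from -0.011 to 0.45 for CD46. Without library 1 of hyperoxia without vehicle, CD46 was -0.056 for oxygen in cells without vehicle and 0.023 for vehicle in hyperoxia, and CD59 was 0.11 for vehicle in hyperoxia. Leaving out 1 of 2 vehicle libraries leaves fewer samples and a single vehicle library, taken to vary like the other groups. The cause of the other changes was not tested. No paired analysis was possible because the labels give no replicate numbers. Depth limits CFB, CFI, LCN2 without ATRA and SERPINA1, which lie at or near the floor of 3 counts.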

Other observations

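The library whose labels disagree on its treatment, and which entered no comparison, had 64 counts of C3 (14.1 CPM), 224 of C5 (49.4 CPM), 343 of CD55 (75.6 CPM), 1007 of CD59 (222 CPM) and 521 of CD46 (115 CPM). It had 5 counts each of CFB and LCN2 (1.10 CPM), 2 of CFI and 0 of SERPINA1. Scaled together with the other 14, none of these but CFI lay above the range of the 8 vehicle and no-vehicle libraries, and the 2 counts of CFI are under the floor of 3.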
